A study of Homo sapiens with 8 samples.

Results

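The miR-26 family was described in colorectal adenocarcinoma cells grown flat or as spheroids. Its members were taken by name, with earlier results of these data known. They were the 5 human mature miRNAs hsa-miR-26a-5p, hsa-miR-26a-1-3p, hsa-miR-26a-2-3p, hsa-miR-26b-5p and hsa-miR-26b-3p (the prefix is left out from here on), out of 1780 mature miRNAs in the count table. Small RNA was sequenced from 2 established cell lines, DLD1 and HT29, both from colorectal adenocarcinoma. Each was grown for 6 days as a monolayer (2D) or as multicellular spheroids (MCS), with 2 libraries per line and culture, called biological replicates in the labels. No group carried an engineered allele or a drug. DLD1 was plated at 35000 cells for 2D and 7000 for MCS, in RPMI medium. HT29 was plated at 100000 cells for 2D and 3500 for MCS, in DMEM. Both media held fetal bovine serum, glutamine, pyruvate, penicillin and streptomycin, and MCS formed in round-bottom wells coated with agarose gel. DLD1 libraries were made with version V3 of the small RNA kit and HT29 libraries with V2, so line, medium and kit cannot be told apart.

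A miRNA hairpin yields a 5p and a 3p arm, of which one is usually kept in the silencing complex while the other is degraded. The kept arm pairs with messenger RNAs mainly through its seed, the bases near its 5′ end, and lowers their translation and stability. The miR-26 family is known for repressing EZH2, the methyltransferase of Polycomb repressive complex, and cyclins and kinases that drive entry into S phase. Its hairpins lie in introns of CTDSP genes, which encode small phosphatases that act on the C-terminal domain of RNA polymerase II and, for some members, on the retinoblastoma protein. miR-26 and its host phosphatases are therefore often described as one growth-restraining unit.

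The mature sequences are shown because the comparisons below turn on which bases separate the members. They were read from the RefSeq miRNA table (GRCh38.p14), in which all 5 members were found, and the capitals mark the seed, bases 2 to 8 from the 5′ end.
miR-26a-5p: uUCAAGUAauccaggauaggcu
miR-26b-5p: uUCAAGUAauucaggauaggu
miR-26a-1-3p: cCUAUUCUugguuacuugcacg
miR-26a-2-3p: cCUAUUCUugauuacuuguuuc
miR-26b-3p: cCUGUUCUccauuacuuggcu
miR-1297: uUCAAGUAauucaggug

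Both 5p members had the same seed and differed at 2 of the 21 positions compared, C11U and C21U (base of miR-26a-5p first, counted from 1 at the 5′ end). The 3p arms of miR-26a had the same seed and differed at 5 of 22 positions, G11A, C19U, A20U, C21U and G22C (base of miR-26a-1-3p first). The seed of the 5p members was found in 4 of 2370 mature miRNAs of that table, the other 2 being miR-1297 and miR-4465. The miR-26a 3p seed was found in those 2 arms and no other entry, and that of miR-26b-3p in 1.

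The hairpins were located on GRCh37, the build to which the authors aligned, and are printed with the mature arms in capitals because they show which loci can be told apart. MIR26A1 lies at chr3:38010895-38010971 on the + strand, in intron 5 of 7 of CTDSPL. MIR26A2 lies at chr12:58218392-58218475 on the - strand, in intron 5 of 7 of CTDSP2. MIR26B lies at chr2:219267369-219267445 on the + strand, in intron 4 of 6 of CTDSP1. None of the 8, 8 and 19 annotated transcripts of these hosts, in that order, had an exon over the hairpin.
MIR26A1: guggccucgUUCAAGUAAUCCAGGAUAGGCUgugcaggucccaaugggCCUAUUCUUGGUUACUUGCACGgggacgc
MIR26A2: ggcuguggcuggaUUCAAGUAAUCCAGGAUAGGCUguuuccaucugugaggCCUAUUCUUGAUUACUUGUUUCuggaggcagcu
MIR26B: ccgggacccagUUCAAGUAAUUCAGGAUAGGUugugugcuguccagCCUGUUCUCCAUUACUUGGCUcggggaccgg

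The 5p arm of MIR26A1 and MIR26A2 was the same sequence, so miR-26a-5p counts are a sum over the CTDSPL and CTDSP2 loci. Each 3p arm belonged to 1 locus. miR-26b-5p and miR-26b-3p both came from the CTDSP1 locus. The sources used here do not name the treatment of reads with more than 1 matching mature miRNA.

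The libraries held 10495634 to 26211524 miRNA counts. In HT29, the 10 most abundant miRNAs took 85.9% and 80.8% of the replicate 1 libraries (2D, MCS) but 68.0% and 63.9% of replicate 2, while in DLD1 they took 62.9% to 67.4%. Values are given as normalized CPM, the count divided by the library total times an upper quartile factor of the line and scaled as CPM, so levels were compared within a line. All 8 epithelial and intestinal marker miRNAs of a fixed list passed the filter in both lines. The summed level of 9 markers of blood, stromal, endothelial, liver, nerve and muscle cells, 8 of which were in the table, was 81.8 to 189 normalized CPM in DLD1 and 16.2 to 125 in HT29. miR-145-5p, miR-451a, miR-122-5p, miR-124-3p and miR-133a-3p were at or below 1.34 normalized CPM in every library. miR-143-3p reached 6.67 in DLD1 and 1.13 in HT29. The endothelial marker miR-126-3p was at 77.5 and 67.6 in DLD1 2D and at 76.1 and 126 in MCS. That log2 difference, 0.48, did not pass the test (edgeR adjusted p = 0.140). In HT29 miR-126-3p was at 4.20 and 9.22 in 2D and at 7.16 and 9.84 in MCS. The blood marker miR-142-3p is given further below.

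Between the 5p members, miR-26b-5p was 2.16-fold higher in DLD1 MCS than in 2D, a change that passed the test, and 1.83-fold higher in HT29 MCS, which did not. The more abundant miR-26a-5p passed the test in neither line. In every MCS library of both lines there were fewer miR-26a-5p counts for each miR-26b-5p count than in any 2D library, a difference at the smallest p its exact permutation test can give (0.0556) and at 0.111 after adjustment. Of all pairs of miRNAs tested in both lines, 17.9% had ratios that likewise did not overlap in either line and moved the same way in both. Within the 3p arms of miR-26a, the MCS libraries of both lines held a larger share of miR-26a-2-3p, from CTDSP2, than the 2D libraries, with the same p values.

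miR-26a-5p, the leading member, was at 31983 and 38442 normalized CPM in the DLD1 2D replicates and at 38121 and 56195 in the MCS replicates. The groups overlapped, since MCS replicate 1 lay below 2D replicate 2. In HT29 it was at 8055 and 4711 in 2D and at 8400.5 and 6152 in MCS, again with overlap. It was the 4th or 5th most abundant miRNA of each DLD1 library and the 17th to 22nd of each HT29 library. On the log2 scale MCS exceeded 2D by 0.42 (SE 0.31) for DLD1 and by 0.19 (SE 0.51) for HT29, with edgeR quasi-likelihood adjusted p of 0.283 and 0.977.

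miR-26b-5p, the sole 5p product of the CTDSP1 locus, was at 6402 and 7369 normalized CPM in DLD1 2D and at 11622 and 18087 in MCS. In HT29 it was at 1434 and 874 in 2D and at 2203 and 2017 in MCS. The MCS libraries lay above the 2D libraries in both lines, with no overlap. In DLD1 157 of 346 tested miRNAs, 45.4%, were likewise higher in both MCS libraries, and in HT29 54 of 301, 17.9%. In DLD1 the mean rose from 6885 ± 684 (SD, n = 2) to 14854 ± 4572 (SD, n = 2), a log2 difference of 1.11 (SE 0.27, edgeR adjusted p = 0.000235). In HT29 the 2D mean was 1154 ± 396 and the MCS mean 2110 ± 131 (SD, n = 2 each), a log2 difference of 0.87 (SE 0.45, edgeR adjusted p = 0.977). Compared between libraries of the same replicate number, MCS was 1.82 and 2.45 times 2D in DLD1 and 1.54 and 2.31 times 2D in HT29. With the replicate number as a block, the HT29 difference was 0.91 and called (edgeR adjusted p = 0.0412), as were 47 of 301 miRNAs (15.6%). The labels do not say whether libraries of the same number were paired. The DLD1 call was lost without 2D replicate 1 (log2 difference 0.87, edgeR adjusted p = 0.0598), without 2D replicate 2 (1.09, adjusted p = 0.0773), and with all 8 libraries in 1 fit (adjusted p = 0.132). Under upper quartile factors over the tested miRNAs the log2 difference was 0.63 and still called (edgeR adjusted p = 0.00827).

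**Figure D1:**
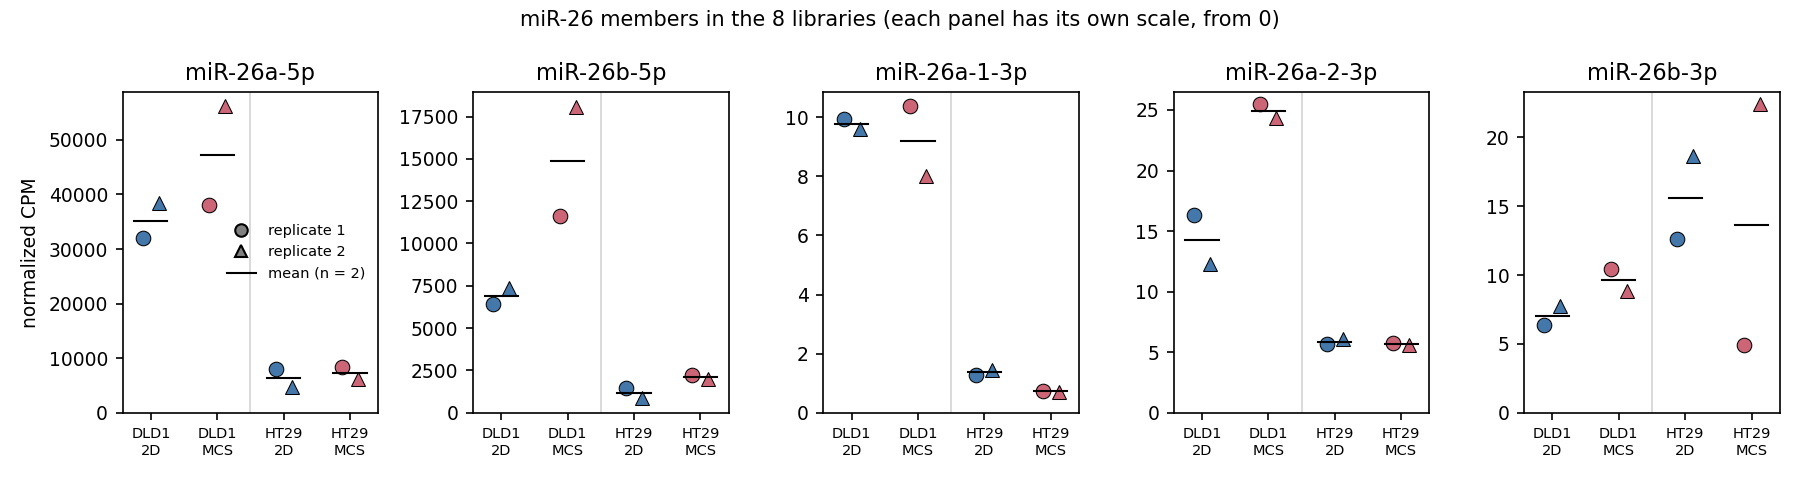
Normalized CPM of the 5 members in each of the 8 libraries, 1 panel per member, each with its own linear axis, with a line at the group mean. miR-26b-5p lies higher in MCS than in 2D in both lines, while the miR-26a-5p groups overlap.

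In DLD1, where 143 of 346 tested miRNAs were called (41.3%; fold change of at least 1.5 and edgeR adjusted p under 0.05), 2 of the 3 tested members were called, miR-26b-5p and miR-26a-2-3p, both higher in MCS, as were 103 miRNAs, 29.8%. With 3 members tested, this count is a description. Over all tested miRNAs of DLD1 the median log2 difference was 0.23. In HT29 0 of 3 tested members and 0 of 301 tested miRNAs were called by edgeR's quasi-likelihood test (0%). At an unadjusted p under 0.05, 12 miRNAs of HT29 passed (3.99%) and none of the 3 members. DESeq2 called 12 (3.99%) and the edgeR exact test 5 (1.66%), with no member among them. Ordered by log2 difference among all tested miRNAs of a line, miR-26b-5p was 52nd of 346 in DLD1 and 34th of 301 in HT29. miR-26a-5p was 139th and 121st.

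The log2 response of miR-26b-5p in HT29 was 0.24 lower than in DLD1 (SE 0.53), and that of miR-26a-5p 0.23 lower (SE 0.61). Neither difference passed the test of the interaction of line and culture over all 8 libraries (edgeR adjusted p = 0.958 and 0.959), nor did any of the 250 miRNAs tested in it (0%). At an unadjusted p under 0.05, 23 miRNAs passed (9.2%), neither member among them, and DESeq2 called 21 miRNAs (8.4%) and neither member.

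**Figure D2:**
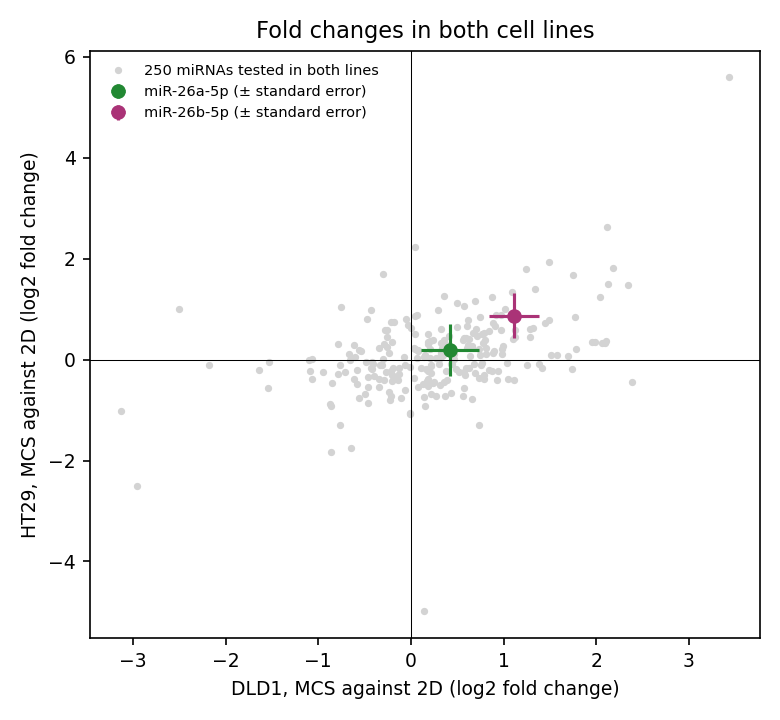
Log2 fold change, MCS against 2D, of the 250 miRNAs tested in both lines, DLD1 on the horizontal and HT29 on the vertical axis, with both 5p members marked. miR-26b-5p lies at 1.11 and 0.87, and miR-26a-5p at 0.42 and 0.19.

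The count ratio of miR-26a-5p to miR-26b-5p was compared next, since a ratio of counts of 1 library does not depend on its scaling. It was 5.00 and 5.22 in DLD1 2D and 3.28 and 3.11 in DLD1 MCS. In HT29 it was 5.62 and 5.39 in 2D and 3.81 and 3.05 in MCS. All 4 MCS libraries lay below all 4 2D libraries. For DLD1 the ratio averaged 5.11 ± 0.156 in 2D and 3.19 ± 0.122 in MCS, and 5.51 ± 0.160 and 3.43 ± 0.540 for HT29 (SD, n = 2 each). On the log2 scale the ratio fell by 0.68 for DLD1 and by 0.69 for HT29. An exact two-sided permutation test with labels permuted within lines gave p = 0.0556, the smallest that its 36 arrangements can give, and 0.111 after adjustment over the 4 ratios compared. This test therefore cannot reach 0.05, nor can it within a line, where its smallest p is 0.33. Of 31125 pairs of miRNAs tested in both lines, 5579 (17.9%) had ratios that did not overlap in either line and moved the same way.

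Expressed as a share, miR-26b-5p made up 16.7% and 16.1% of both 5p members in DLD1 2D and 23.4% and 24.3% in MCS. In HT29 the share was 15.1% and 15.6% in 2D and 20.8% and 24.7% in MCS. Wilson intervals (95%), which cover counting error only, were no wider than 14.8% to 15.4%, that of HT29 2D replicate 1, and those of the 2 replicates did not overlap in any group, so the spread between replicates exceeded the counting error in 2D and in MCS.

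**Figure D3:**
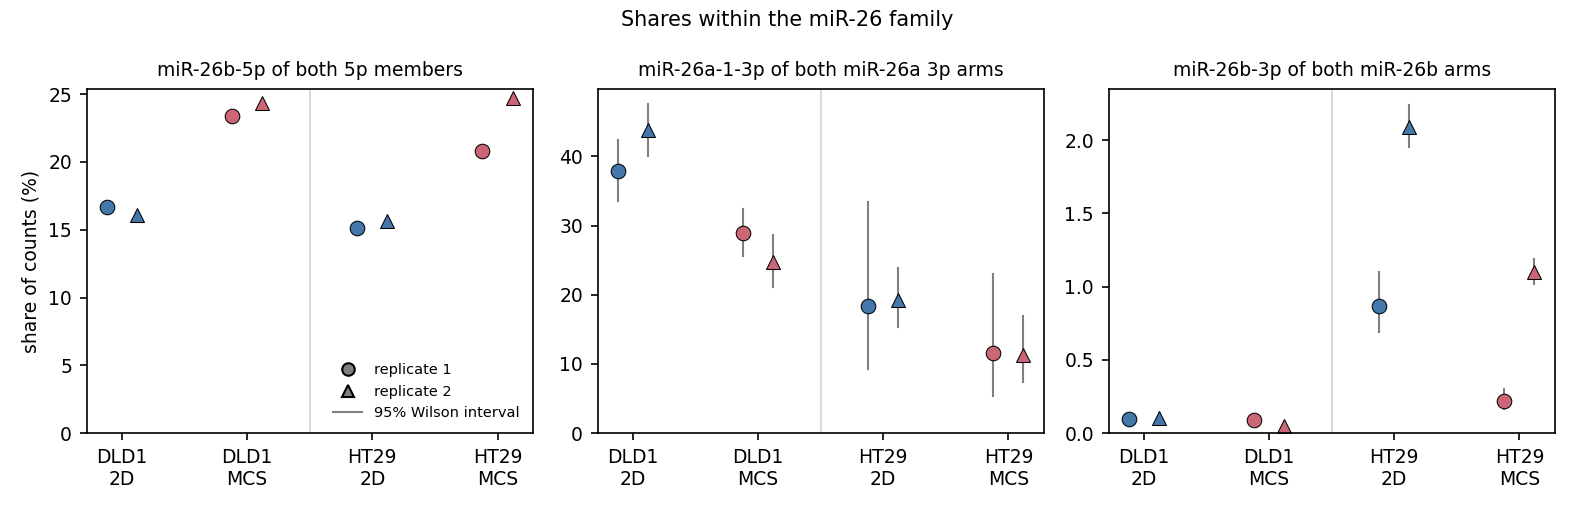
Share in percent, per library, of miR-26b-5p among both 5p members, of miR-26a-1-3p among both miR-26a 3p arms, and of miR-26b-3p among both miR-26b arms, with 95% Wilson intervals. The first share is higher and the second lower in all MCS libraries than in the 2D libraries of the same line.

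Together with miR-1297, which shares the seed, the 5p members formed a pool of 38386 and 45811 normalized CPM in DLD1 2D and 49743 and 74284 in MCS. In HT29 the pool was 9489 and 5585 in 2D and 10603 and 8170 in MCS, with overlap. miR-1297 added at most 25 counts to any library and was not tested. miR-4465, the other miRNA with this seed, was not in the count table. Since miR-1297 has the first 15 bases of miR-26b-5p and then differs by A16U and U17G, its reads could be told from those of miR-26b-5p by the end of the molecule alone.

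The 3p arms were rare. They made up 0.0555% to 0.0929% of the counts of all 5 members in DLD1 and 0.108% to 0.466% in HT29. miR-26a-2-3p, from CTDSP2, was at 16.3 and 12.3 normalized CPM in DLD1 2D and at 25.5 and 24.4 in MCS. The groups did not overlap, as for 157 of 346 tested miRNAs of DLD1 (45.4%) that were higher in both MCS libraries. The difference passed the test at 0.80 on the log2 scale (SE 0.34, edgeR adjusted p = 0.0464). That call rested on 286 to 477 counts per library and lay near the threshold. It was lost under TMM factors (edgeR adjusted p = 0.106), with no filter (0.101) and without any 1 of the 4 DLD1 libraries (0.100 to 0.456). In HT29 miR-26a-2-3p was at 5.65 and 6.07 in 2D and 5.77 and 5.58 in MCS, below the filter of a mean of 10 CPM, and was not tested.

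miR-26a-1-3p, from CTDSPL, missed the filter in both lines. In DLD1 it was at 9.92 and 9.58 normalized CPM in 2D and at 10.4 and 7.99 in MCS. In HT29 it was at 1.28 and 1.45 in 2D and at 0.753 and 0.711 in MCS, on 6 to 63 counts per library. The DLD1 groups overlapped, and in HT29 both MCS libraries lay below both 2D libraries, as did 32 of the 301 tested miRNAs, 10.6%. Those 301 had passed the filter that miR-26a-1-3p missed, so this share does not cover miRNAs at such low counts.

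The count ratio of miR-26a-2-3p to miR-26a-1-3p was 1.64 and 1.28 in DLD1 2D and 2.46 and 3.04 in MCS, and 4.20 and 4.17 in HT29 2D and 7.15 and 7.67 in MCS. It was higher in MCS in both lines without overlap, with log2 differences of 0.91 (DLD1) and 0.82 (HT29) (exact permutation p = 0.0556, the smallest possible, adjusted p = 0.111). As a share, miR-26a-1-3p was 37.8% (95% Wilson interval 33.5% to 42.3%) and 43.8% (40.0% to 47.6%) of both arms in DLD1 2D. In DLD1 MCS it was 28.9% (25.6% to 32.5%) and 24.7% (21.1% to 28.7%). In HT29 the intervals were wide, from 9.22% to 33.4% in 2D replicate 1 with 38 counts and from 7.36% to 17.0% in MCS replicate 2 with 168 counts, and the MCS and 2D intervals of HT29 overlapped. Neither arm was among the miRNAs tested in both lines, so the share of 17.9% given for pairs of those miRNAs does not cover this ratio. It concerns 3p arms, and the 5p counts cannot be split between these loci.

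**Figure D4:**
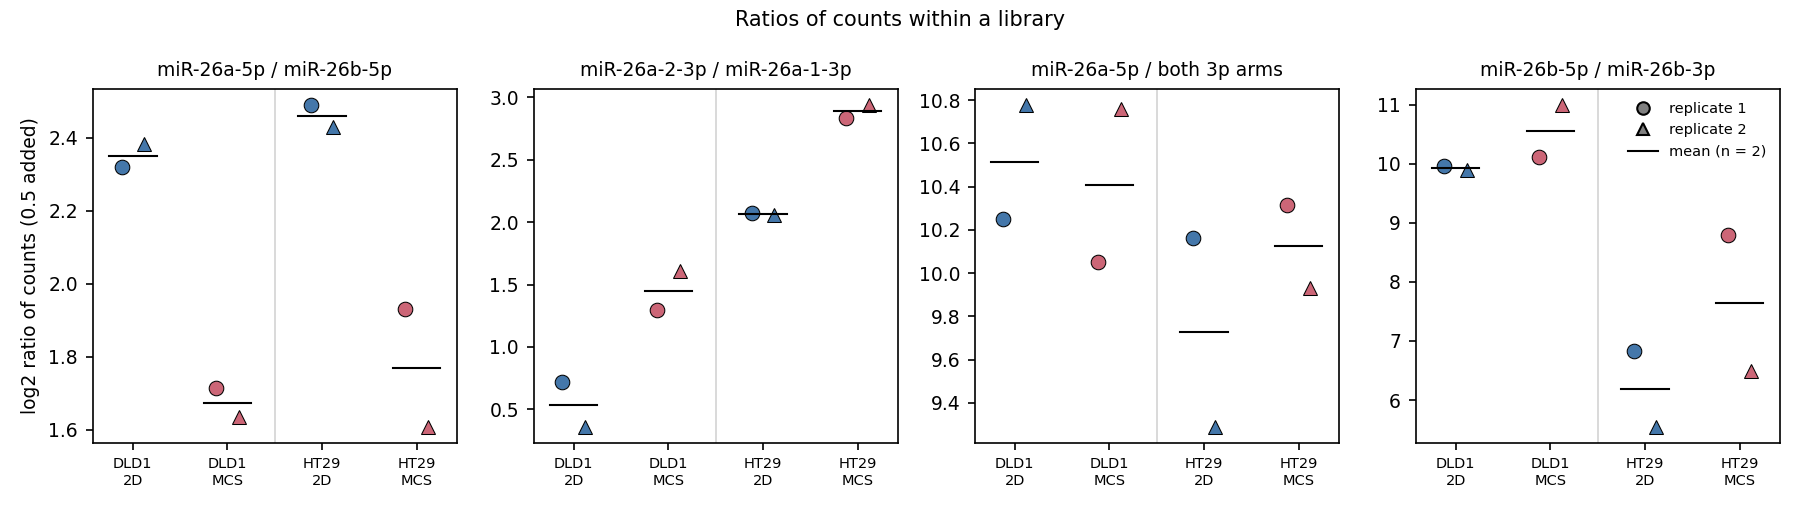
Log2 count ratio of each of 4 pairs of arms or loci in each of the 8 libraries. Before the logarithm, the ratio of miR-26a-5p to miR-26b-5p falls from 5.00 to 5.62 in 2D to 3.05 to 3.81 in MCS.

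miR-26b-3p, the passenger arm of miR-26b, behaved differently between the replicates of HT29. In DLD1 it was at 6.39 and 7.73 normalized CPM in 2D and 10.4 and 8.85 in MCS and missed the filter. In HT29 it was at 12.6 and 18.7 in 2D and 4.90 and 22.4 in MCS, and the fit gave -0.19 on the log2 scale (SE 0.80, edgeR adjusted p = 0.977). Within replicate number 1 of HT29 MCS was 0.389 times 2D, and within number 2 1.20 times. The ratio of miR-26b-5p to miR-26b-3p was 998 and 951 in DLD1 2D and 1112 and 2037 in MCS, and 113 and 46.8 in HT29 2D and 444 and 89.9 in MCS. Its mean log2 difference over the lines was 1.04 (exact permutation p = 0.222, adjusted p = 0.296). The ratio of miR-26a-5p to the sum of both its 3p arms ranged from 626 to 1755 and differed by 0.14 on the log2 scale (exact permutation p = 0.778). miR-26b-3p was a larger share of the miR-26b counts in every HT29 library (0.222% to 2.09%) than in any DLD1 library (0.0489% to 0.105%). Since kit and medium differed with the line, their parts in this difference cannot be told apart.

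**Figure D5:**
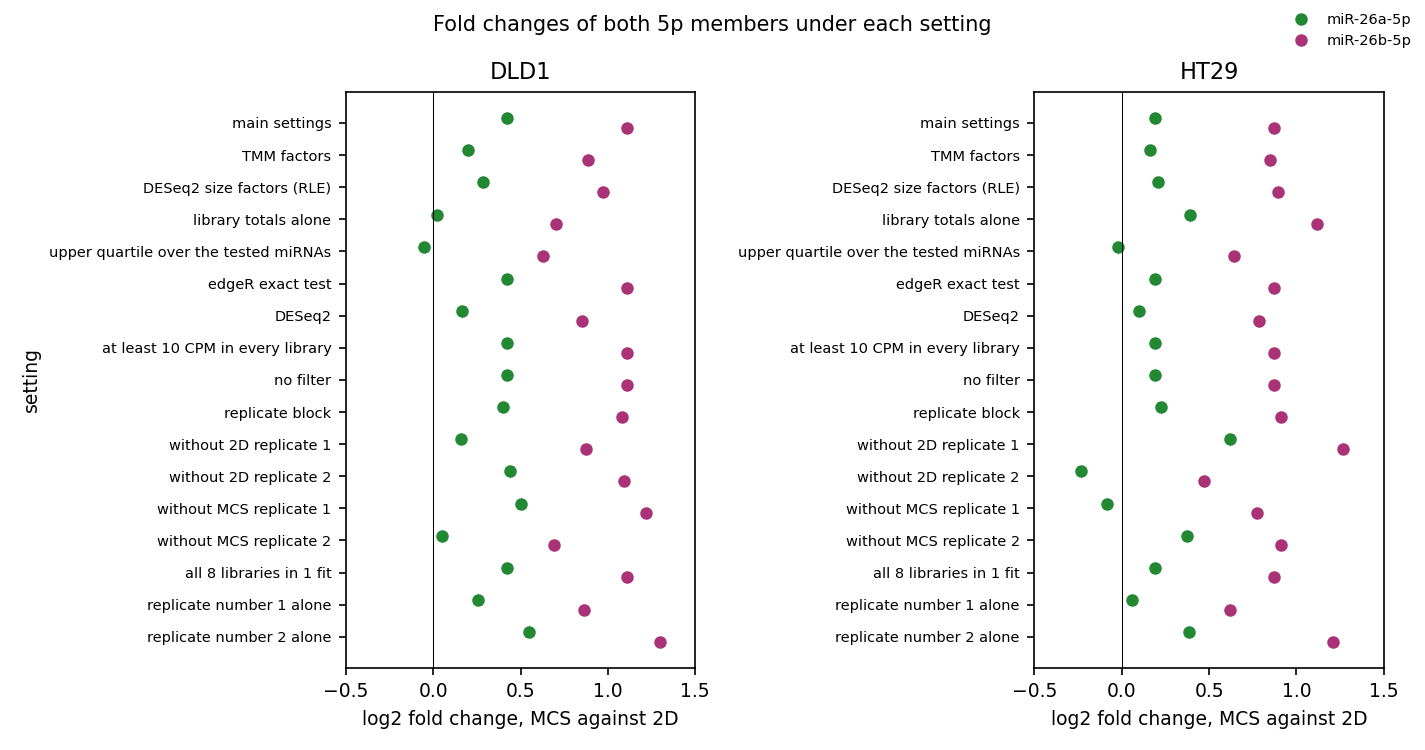
Log2 fold change, MCS against 2D, of miR-26a-5p and miR-26b-5p in each line under every processing setting tried, with a line at 0. miR-26b-5p stays above 0 in all of them, and miR-26a-5p reaches -0.05 in DLD1 and -0.23 in HT29.

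The other miRNAs with known roles near those of miR-26 were counted from lists chosen with earlier results of these data known. Of 6 miRNAs known to target EZH2, 3 were tested in DLD1 and 2 rose, beside 29.8% of all tested miRNAs. They were miR-101-3p, by 1.41 (SE 0.24, edgeR adjusted p = 6.79e-08), and let-7a-5p, by 1.57 (SE 0.30, adjusted p = 1.64e-06). The other tested member of the list, miR-98-5p, differed by 0.19 and was not called (edgeR adjusted p = 0.525). The median of the tested list members was 1.41, beside 0.23 over all tested miRNAs. In HT29 0 of 3 were called, as of all 301 tested miRNAs, and the median was -0.17, beside 0.03. Of 18 miRNAs that restrain the passage from G1 to S phase, among them the let-7, miR-15/16 and miR-34 families, 14 were tested in DLD1. There 6 rose, 0 fell and 8 did not pass, beside 29.8% of all tested miRNAs that rose, and the median was 0.34, beside 0.23. Those that rose were let-7a-5p (on both lists), let-7b-5p (2.10 on the log2 scale), let-7c-5p (2.07), let-7f-5p (0.69), miR-195-5p (0.84) and miR-34a-5p (0.88). The smallest difference was that of miR-16-5p (0.04). In HT29 0 of 12 were called, from -0.55 for let-7i-5p to 0.50 for miR-16-5p, with a median of 0.06, beside 0.03.

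The miRNAs whose levels ran most like those of each 5p member were found by the correlation of log2(normalized CPM + 1), centred on the line's mean, over the 8 libraries, among 248 miRNAs. These are descriptions, since the points share their libraries and scaling. For miR-26a-5p they were let-7a-5p (Pearson 0.916), let-7g-5p (0.904), miR-28-5p (0.893), miR-340-5p (0.893) and miR-146b-5p (0.887). For miR-26b-5p they were miR-194-3p (0.937), miR-361-3p (0.937), miR-192-5p (0.927), miR-30d-5p (0.918) and miR-375 (0.912). miR-192-5p and miR-375 are abundant in intestinal epithelium. miR-26a-5p and miR-26b-5p had 0.812 with each other. The summed level of the 8 epithelial markers, miR-192-5p among them, was 87852 and 95885 normalized CPM in DLD1 2D and 170946 and 234378 in MCS. In HT29 it was 139553 and 121034 in 2D and 201400 and 179031 in MCS. In DLD1 6 of the 8 rose, beside 29.8% of all tested miRNAs, and in HT29 0 were called, as of all 301 tested. The blood marker miR-142-3p also rose in DLD1, by 1.49 on the log2 scale, from 28.2 and 11.1 to 53.2 and 56.5 normalized CPM. Its HT29 levels were 11.1 and 25.9 in 2D and 28.4 and 114 in MCS. They did not overlap, as for 54 of 301 tested miRNAs of HT29 (17.9%) that were higher in both MCS libraries. The log2 difference of 1.93 was not called (edgeR adjusted p = 0.977). The part of these marker levels in the miR-26b-5p result was not tested. A change in the share of cells that hold a miRNA and a change in its level per cell cannot be told apart in bulk samples.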

How the data were processed

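The authors trimmed adapters and random end bases with Cutadapt, aligned reads to GRCh37 with Bowtie2 and assigned them to mature miRNAs of miRBase. They deposited raw read counts per mature miRNA and library, without normalization or pooling. Strand use is not named in the sources used here. The table of all libraries and the single-library tables were compared over 12572 values, of which 0 differed. Members and lists were chosen with earlier results of these data known.

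Counts were tested with edgeR 4.0.16 (limma 3.58.1, R 4.3.3) within each line: upper quartile factors over miRNAs with at least 1 count, a mean of at least 10 CPM, quasi-likelihood test, Benjamini-Hochberg adjustment over all tested miRNAs. Ratios had 0.5 count added and were tested by exact permutation (Python 3.11.15, numpy 2.4.6). Wilson intervals were computed with scipy 1.17.1. DESeq2 1.42.0 was an alternative. The named miRNAs were all members, the measured list members (of the larger lists those past adjusted p 0.05 and the extremes), and the 5 most alike. Hairpins were placed with GENCODE lifted to GRCh37. The code was tested on simulated data. Precision is set by the 2 replicates per group.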

Additional observations from a re-analysis of the deposited data

Results flagged for a closer look

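The HT29 tables also listed 15 entries that name no miRNA. They held 2590 counts in replicate 2 of HT29 2D, 0.00988% of that library, and 0 in the other libraries, which is a signal outside the comparisons made here, and they were left out.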

How the results depend on the processing

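With 2 libraries per group, the spread between replicates sets the limits, and counting error limits the 3p arms of HT29. In DLD1 2 members were called. This number was 1 under TMM, RLE, library totals, upper quartile factors over the tested miRNAs, DESeq2 and no filter, 0 with all 8 libraries in 1 fit, and 0 to 1 without 1 library. miR-26b-5p had log2 differences of 0.69 to 1.22 in DLD1 without 1 library, 0.63 under upper quartile factors over the tested miRNAs, 0.70 under library totals and 1.11 with all 8 libraries in 1 fit, where the spread is pooled and 29 miRNAs were called (8.38%). Leaving out a library left an arm with 1 sample, assumed to vary like the other group. In HT29 no member was called without any 1 library, and miR-26b-5p ranged from 0.47 to 1.27. With the replicate block, 1 member was called in HT29, miR-26b-5p at 0.91 (edgeR adjusted p = 0.0412), and 47 miRNAs in all (15.6%), whereas in DLD1 the block called the same 2 members. The labels give no batch behind the numbers, and libraries of the same number deviated together across miRNAs with a correlation of 0.321 in DLD1 and 0.789 in HT29. Whether the numbers mark paired cultures is not known from the labels. Some small differences changed sign. miR-26a-5p was at -0.052 in DLD1 and -0.024 in HT29 under upper quartile factors over the tested miRNAs, and spanned 0.05 to 0.50 and -0.23 to 0.62 without 1 library. miR-26b-3p in HT29 was at 0.035 under library totals and -1.70 to 0.49 without 1 library, and at 0.26 within replicate number 2, a comparison chosen after seeing the data. The response of HT29 minus that of DLD1 under library totals was 0.37 for miR-26a-5p and 0.42 for miR-26b-5p, and without 1 library -0.65 to 0.20 and -0.64 to 0.18. No member was called in the interaction under any of 12 alternatives. The ratio of miR-26a-5p to its 3p arms was -0.071 over miR-26a-2-3p alone and -0.074 to 0.36 without 1 library. The ratio of miR-26a-5p to miR-26b-5p stayed between -0.76 and -0.60, and that of miR-26a-2-3p to miR-26a-1-3p between 0.78 and 0.96. By Spearman correlation, 2 of the 5 miRNAs most like miR-26a-5p were kept. The causes of these changes were not tested. The median log2 difference of all tested miRNAs moved by -0.46 in DLD1 and -0.24 in HT29 under upper quartile factors over the tested miRNAs, by -0.21 and -0.07 under TMM, by -0.12 and -0.01 under RLE, and by -0.37 and 0.13 under library totals.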

Other observations

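Other miRNA families whose hairpins also lie in introns of paralogous genes were counted in the same way, for miR-103a/107, miR-33, miR-218 and miR-128. In DLD1 3 of the 6 listed miRNAs were tested and 1 rose, beside 29.8% of all tested miRNAs. It was miR-107, by 0.62 on the log2 scale (SE 0.23, edgeR adjusted p = 0.0212). miR-103a-3p, of the same family, had the smallest difference, 0.21 and not called. The median was 0.41, beside 0.23 over all tested miRNAs. In HT29 0 of 4 were called, as of all 301 tested miRNAs. They ranged from -0.12 for miR-103a-3p to 1.23 for miR-33a-5p, and the median was 0.38, beside 0.03.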
